A study of Mus musculus with 8 samples.

Results

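The collagen genes of the newborn mouse organ of Corti were taken as all rows of the deposited gene count tables whose symbol is Col, a number, a and a number. This rule found 44 of 41079 genes and used no measured value. They were grouped by collagen type into 6 cartilage and tectorial genes (types II, IX and XI), 8 fibrillar genes (types I, III, V, XXIV and XXVII), 8 basement membrane genes (types IV, XV and XVIII) and 22 other genes. Total RNA of micro-dissected organ of Corti, the hearing epithelium of the cochlea, was sequenced on postnatal day 0 from 4 wildtype libraries and 4 libraries labelled Prox1 knock-out, with Emx2-cre and floxed-Prox1. The labels do not give the alleles that the wildtype carried, the cells in which Cre had acted, the strain, the sex or whether animals were pooled. Whether each library stands for its own animal is not said either. The p-values therefore speak only of the spread among the libraries, which could be technical.

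Collagens are matrix proteins in which a trio of chains winds into a triple helix. Fibrillar types I, III and V build the strong fibrils of connective tissue, while types II, IX and XI build the thinner fibrils of cartilage. In the cochlea these cartilage types also form the collagen fibrils of the tectorial membrane, the sheet of matrix over the hair cells, and changes in them are known causes of deafness. Type IV chains form the sheet-like network of basement membranes under epithelia and around vessels, with types XV and XVIII as basement membrane proteins that also carry proteoglycan chains. Chains of a type are made from separate genes, some of which lie head to head in the genome.

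Library totals ran from 29908965 to 42318233 counts, each library labelled knockout being shallower than each wildtype library. Levels are given as CPM, which are counts scaled to a common library size with TMM factors. Prox1 itself was higher in the knockout-labelled libraries, at 139 ± 5.71 against 111 ± 4.29 CPM (SD, 4 libraries each; Benjamini-Hochberg adjusted p = 0.0298, edgeR). This goes against the label, although whole-gene counts cannot check the deletion of floxed exons, and groups are named as labelled throughout. Markers of the organ of Corti were counted in each library. All 15 supporting cell markers and all 15 hair cell markers passed the low-count filter, and their summed CPM ran from 1398 to 1519 and from 782 to 946 in wildtype. In the knockout-labelled libraries these sums ran from 1406 to 1511 and from 833 to 867. The dissection also held other cells: all 20 markers of periotic mesenchyme and fibrocytes passed the filter, with summed CPM of 3939 to 4765 in wildtype and 3834 to 4245 in the knockout-labelled libraries.

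For type XI and type V chains, which can assemble together in fibrils, the bases just before the gene start are shown so that the genes of these co-assembling chains can be set side by side. RefSeq promoter windows of GRCm38.p6, an older build than that of the counts (GRCm39), were available for 35 of the 44 genes. Each line gives the 100 bases before the start, 5′ to 3′ on the plus strand, from chr3:114030440-114030539 for Col11a1, chr17:34039038-34039137 for Col11a2 and chr2:27886325-27886424 for Col5a1. Capitals mark CCAAT (or ATTGG on the other strand) and GGGCGG (or CCGCCC).
Col11a1: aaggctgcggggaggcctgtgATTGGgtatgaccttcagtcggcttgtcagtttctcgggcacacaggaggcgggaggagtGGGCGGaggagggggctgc
Col11a2: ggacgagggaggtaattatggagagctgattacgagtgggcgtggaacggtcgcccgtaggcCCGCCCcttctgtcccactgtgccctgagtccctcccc
Col5a1: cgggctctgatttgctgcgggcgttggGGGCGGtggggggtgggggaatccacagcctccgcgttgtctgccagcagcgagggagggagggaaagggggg
In these 100 bases GGGCGG occurred 1 time before each of the 3 genes and CCAAT 1 time, before Col11a1. Over windows of 300 bases (250 before and 50 after the start), searched on both strands, GGGCGG was found in 23 of 38 collagen windows (60.5%) and in 35.7% of all 32851 windows. CCAAT was found in 13 collagen windows (34.2%) and in 37.4% of all windows, and TATAAA in 5 (13.2%) and 13.6%. A match of such short letters is a description of the window and not a binding site.

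Type II, IX and XI genes together held most of the collagen counts of the newborn organ of Corti. The 44 genes together held 2.90% ± 0.114 of all counts in wildtype (SD, n = 4), and the 6 cartilage and tectorial genes held 66.6% ± 1.2 of the collagen counts. Fibrillar genes held 19.3% ± 1.2, basement membrane genes 8.99% ± 0.247 and the 22 other genes 5.04% ± 0.145. In the knockout-labelled libraries these shares of the collagen counts were 67.4% ± 0.823, 18.4% ± 0.524, 9.10% ± 0.265 and 5.12% ± 0.182 (SD, n = 4). The shares of the 4 classes differed between groups by at most about the spread between libraries.

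Levels of different genes were compared per kilobase of exon, with exon lengths from GENCODE M21, in which all 44 genes were found. Col2a1, the chain of the type II homotrimer, stood first in wildtype with 2107 ± 126 CPM per kb (SD, n = 4). It was followed by Col9a2 (635 ± 40.4 CPM per kb), Col9a1 (536 ± 46.3), the type I chain gene Col1a2 (505 ± 49.3) and Col9a3 (423 ± 38.4). Col9a1 and Col1a2 differed by less than their SD. Next came Col11a2 (294 ± 25.4), the type III gene Col3a1 (260 ± 20.4) and Col11a1 (194 ± 12.2). Col18a1, whose product releases endostatin, had 135 ± 8.62 CPM per kb and led the basement membrane genes, with Col4a1 (128 ± 7.48) within its SD and Col4a2 at 104 ± 3.79. Col26a1 led the other genes with 69.2 ± 4.73 CPM per kb. At the low end, Col4a3 and Col17a1, a hemidesmosome collagen gene, had 0.189 ± 0.0327 and 0.188 ± 0.0533 CPM per kb, and Col6a5 had 0.0877 ± 0.0339. Col6a4, with 2 to 9 counts in any library, was the single gene that did not pass the filter and is left out of the 43 tested genes.

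**Figure D1:**
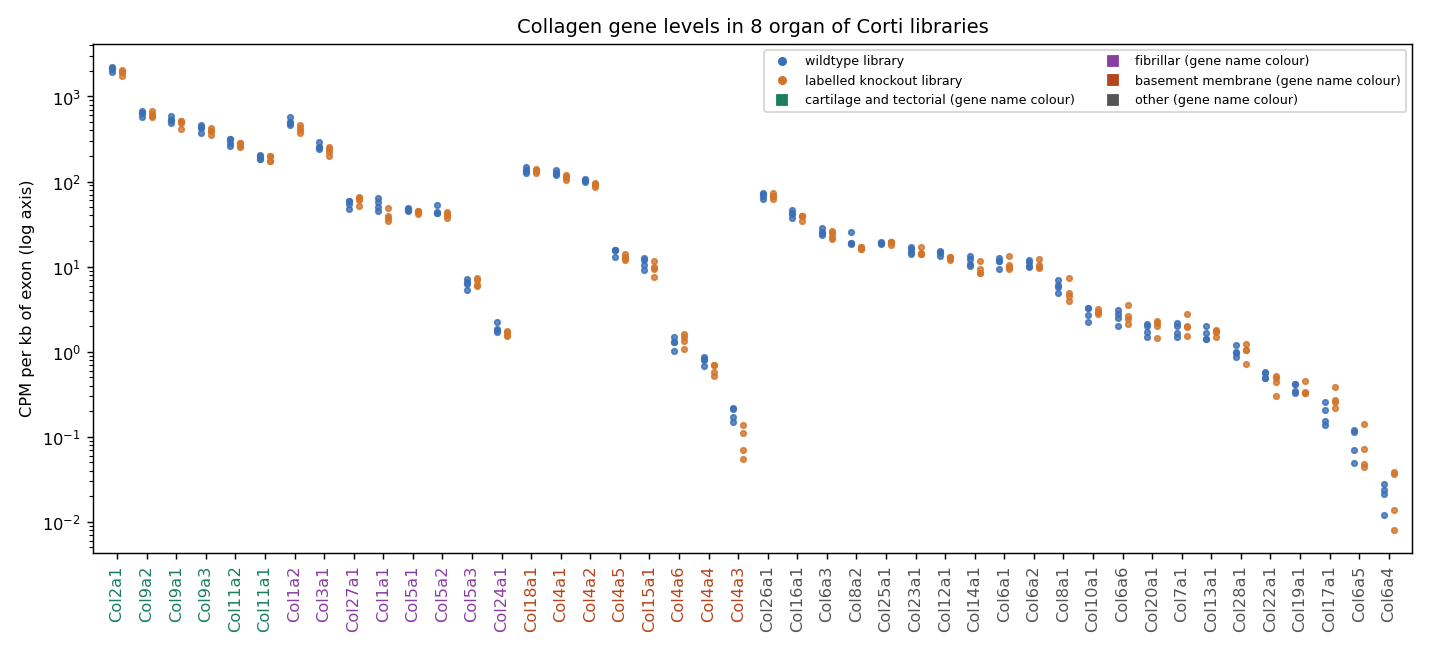
Level of each of the 44 collagen genes as CPM per kb of exon (log axis), with 1 point per library, blue for wildtype and orange for knockout-labelled libraries, and gene names coloured by class. Levels run from about 2107 CPM per kb for Col2a1 to under 0.1 for Col6a5 and Col6a4, and the colours of 1 gene lie close together beside this range.

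Some chains of the same type, and some collagen genes side by side in the genome, differed widely in level, while others were close. Col9a1 and its neighbour in the RefSeq order, Col19a1, had 536 ± 46.3 and 0.378 ± 0.0491 CPM per kb in wildtype (SD, n = 4). Col4a5 and Col4a6, neighbours on the X chromosome, had 14.8 ± 1.33 and 1.28 ± 0.192, and Col4a4 and Col4a3 had 0.793 ± 0.0772 and 0.189 ± 0.0327. Levels of Col4a1 and Col4a2, another pair of neighbours, were nearer, and within each library the count ratio of Col4a1 to Col4a2 lay between 1.21 and 1.31. Per kb, Col6a1 and Col6a2, also neighbours, had 11.4 ± 1.39 and 10.9 ± 1.01 CPM, while Col6a3, the gene of the long chain of type VI, had 25.6 ± 1.97.

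Col1a1 was far below Col1a2 in each library. A type I collagen molecule holds a pair of chains from Col1a1 and one from Col1a2. Per length, the ratio of Col1a1 to Col1a2 was 0.108 ± 0.0104 in wildtype and 0.0963 ± 0.0117 in the knockout-labelled libraries (SD, 4 libraries each). The raw count ratio ran from 0.0961 to 0.130 over the 8 libraries. The GC content of the longest transcript was 58.9% for Col1a1 and 55.7% for Col1a2, against 62.2% for Col2a1, the most abundant collagen. The part of GC content in this ratio was not tested.

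Within-library count ratios of type IX chains varied little, while that of Col11a1 to Col11a2 ran from 0.710 to 0.896 in wildtype. The count ratio of Col9a1 to Col9a2 was 1.18 ± 0.0354 in wildtype and 1.10 ± 0.0682 in the knockout-labelled libraries, and that of Col9a3 to Col9a2 was 0.692 ± 0.0202 and 0.668 ± 0.0201 (SD, 4 libraries each). Col2a1 to Col11a1 gave 7.23 ± 0.311 and 6.87 ± 0.396, and Col11a1 to Col11a2 gave 0.808 ± 0.0798 and 0.833 ± 0.0143. For each of the 12 chain ratios computed, the values of the 2 groups overlapped. The lowest difference in log2 ratio was that of Col4a3 to Col4a4, at -0.75, with a count ratio of 0.203 ± 0.0379 in wildtype and 0.123 ± 0.0330 in the knockout-labelled libraries. Next was Col4a5 to Col4a6, at -0.32, with ratios of 11.5 ± 0.899 and 9.35 ± 1.71. Ratios of a gene to another in 1 library do not depend on library scaling, and these were not tested.

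**Figure D2:**
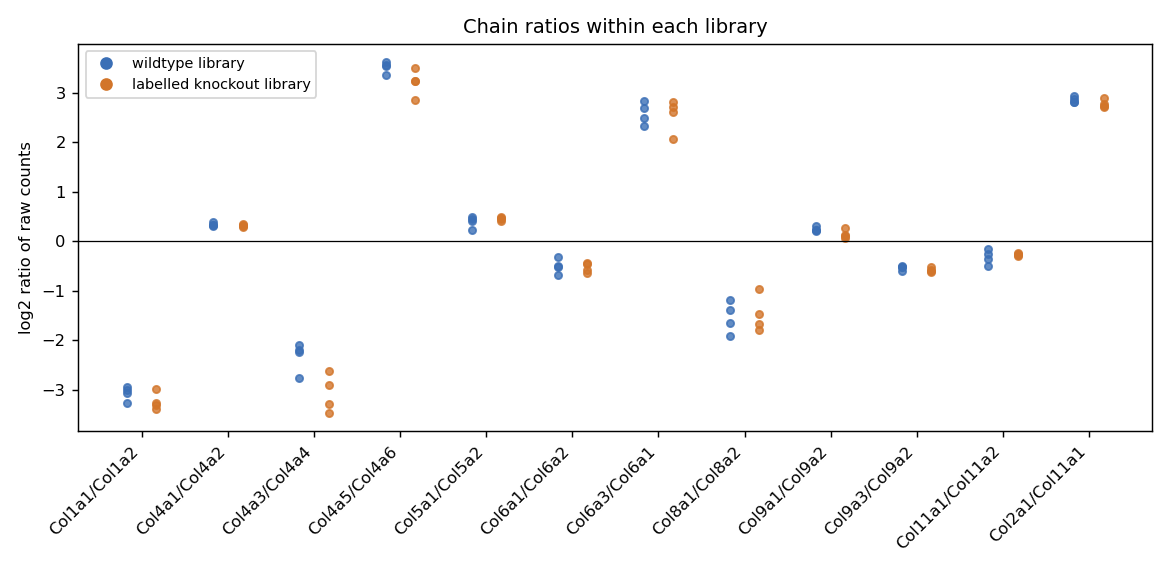
Log2 ratio of raw counts of 2 collagen chains within each library, for 12 pairs, with blue points for wildtype and orange points for knockout-labelled libraries. The groups overlap for each pair, and Col1a1/Col1a2 lies near -3 in both groups.

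The study's comparison asks which genes differ when Prox1 is deleted. None of the 43 tested collagen genes passed the 0.05 threshold after Benjamini-Hochberg adjustment (edgeR quasi-likelihood, 20581 genes), in which 0.0340% of all genes were called higher and 0.0583% lower. Collagens nevertheless lay mostly lower in the knockout-labelled libraries: 33 of 43 (76.7%) had a log2 fold change below 0, against 10290 of 20581 tested genes, and their median was -0.11, against 0.00 for all genes. At an unadjusted p under 0.05, 10 were lower (23.3%, against 2.78% of all genes) and 1 was higher (against 4.76%). Every library labelled knockout lay below every wildtype library for 6 of the 43 genes (14.0%, against 1.62% of all genes), and above for 0 (against 2.07%). Chains of a type and genes of a tissue vary together, so these counts are not those of independent genes. DESeq2 called 1 collagen lower, Col1a1, against 0.229% of all genes, and 0 higher, against 0.167%.

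Markers of several other cell types also lay mostly below 0, and their part in the collagen values was not tested beyond the fits given here. Of the 20 mesenchyme and fibrocyte markers, 17 lay below 0, their median log2 fold change was -0.09, and none were at 0 counts. The mean log2 CPM of that list was 6.17, 5.98, 6.18 and 5.98 in wildtype (library 1 to 4) and 6.02, 5.95, 5.89 and 6.02 in the knockout-labelled libraries 1 to 4. Of 14 tested markers of stria vascularis and melanocytes, 12 lay below 0 with a median of -0.39. None of the 16 listed had 0 counts in all 8 libraries, but Tyrp1 and Mlana, which did not pass the filter, had 0 in some. Summed CPM of the 16 ran from 1128 to 1348 in wildtype and from 1023 to 1169 in the knockout-labelled libraries. The stria score was 4.42, 3.67, 4.04 and 3.11 in wildtype libraries 1 to 4 and lay between 2.95 and 3.24 in the other group. Of 18 markers of endothelium and pericytes, 16 lay below 0 with a median of -0.15, with summed CPM of 953 to 1079 and 938 to 992. The mean log2 CPM of that list was 5.02, 4.86, 4.97 and 4.79 in wildtype libraries 1 to 4. In the knockout-labelled libraries 1 to 4 it was 4.79, 4.79, 4.73 and 4.76. These means did not overlap, by a narrow gap (4.7892 against 4.7879), while those of the other cell type lists overlapped. Osteoblast markers (7 of 8 tested below 0) had a median of -0.15 and red cell markers (7 of 8) -0.36. Glia markers (7 of 12) had -0.05 and macrophage markers (7 of 12) -0.06. Supporting cell markers (8 of 15) had -0.0036 and hair cell markers (9 of 15) -0.05. Over all tested genes, 10290 of 20581 lay below 0. None of these markers had 0 counts in all 8 libraries. The osteoblast markers Bglap, Bglap2 and Mepe, which did not pass the filter, had 0 in some. With the mesenchyme score, the list's mean log2 CPM, as a covariate, 5 collagens were lower at an unadjusted p under 0.05, and 2 with the stria score. Leaving out wildtype libraries 1 and 3, which have the highest stria scores, gave 6. The shares of all genes lower at that p were then 1.93%, 1.57% and 1.63%, and 31, 30 and 34 of the 43 collagens lay below 0. The stria score mostly followed the groups. The SE of Col11a2, for example, was 0.079 in the main fit, 0.115 with the stria score and 0.090 without wildtype libraries 1 and 3. A wider SE alone can lower the number at that p, so these 2 settings cannot decide the part of cell content. In bulk tissue, fewer cells of a type and less RNA per cell cannot be told apart.

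**Figure D3:**
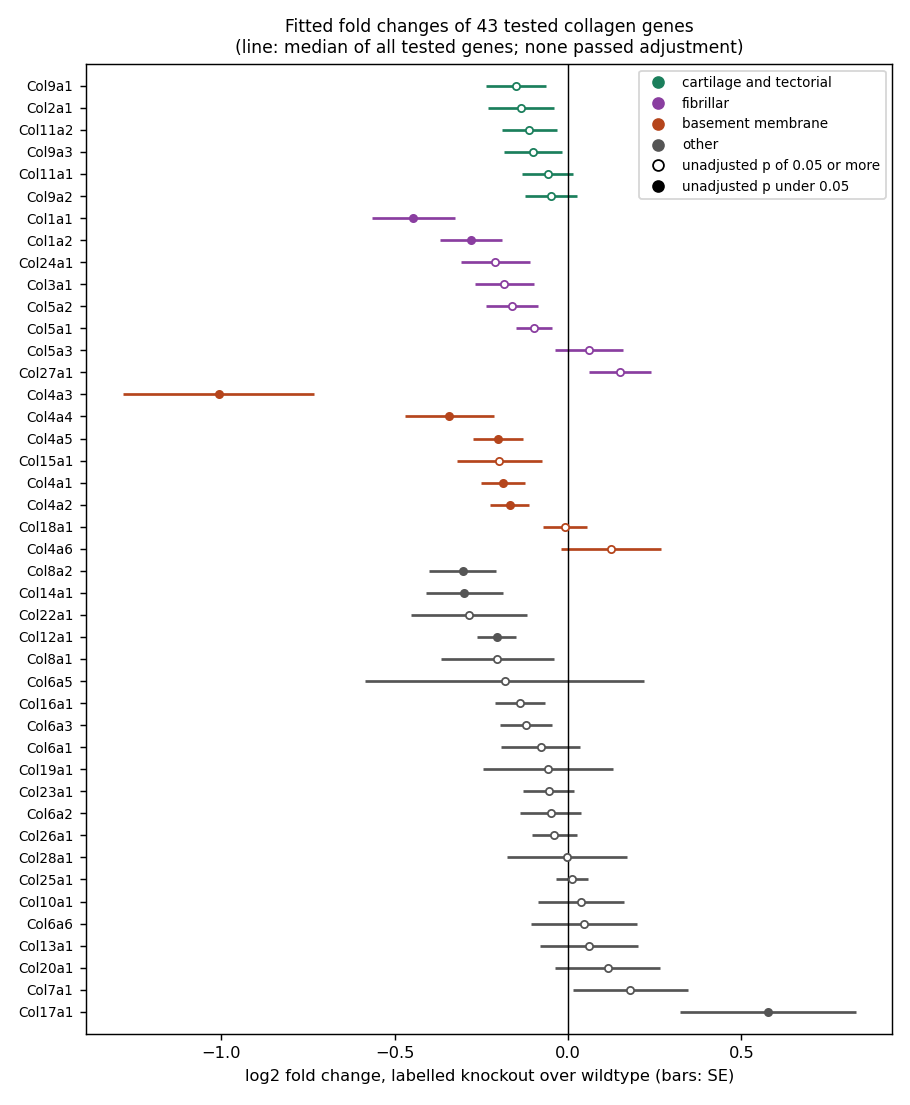
Fitted log2 fold change of each of the 43 tested collagen genes (knockout-labelled libraries over wildtype) with its SE, grouped by class. Filled points were under 0.05 before adjustment (edgeR), and the line is the median of all tested genes. Most points lie left of the line, and none passed after adjustment.

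All 6 cartilage and tectorial genes, which build the collagen of the tectorial membrane and of cartilage, had log2 fold changes between -0.15 and -0.05. Col2a1 had 11301, 9836, 11073 and 10813 CPM in wildtype (library 1 to 4) and 10365, 10003, 8796 and 10011 CPM in the knockout-labelled libraries 1 to 4. Wildtype library 2 lay within the range of the knockout-labelled libraries, and knockout-labelled library 3 was the lowest. The log2 fold change of Col2a1 was -0.14 ± 0.10 (SE), which did not pass (Benjamini-Hochberg adjusted p = 0.707, edgeR quasi-likelihood).

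The type IX chains, which coat type II fibrils, showed the same order of libraries at their ends. Col9a1 had 2441, 1976, 2187 and 2195 CPM in wildtype, and the knockout-labelled libraries had 2103, 2008, 1725 and 2091 CPM (log2 fold change -0.15 ± 0.09). Col9a2 had 1976, 1695, 1868 and 1893 CPM in wildtype, and the knockout-labelled libraries had 1952, 1836, 1657 and 1743 CPM (-0.05 ± 0.08). For both genes wildtype library 1 was the highest and knockout-labelled library 3 the lowest, and the groups overlapped. Col11a2, a chain of the type XI collagen that sits in the core of type II fibrils, had 1981, 1667, 1770 and 1991 CPM in wildtype, and the knockout-labelled libraries had 1809, 1798, 1601 and 1649 CPM (-0.11 ± 0.08). Col9a3 and Col11a1, the remaining genes of the class, had log2 fold changes of -0.10 ± 0.08 and -0.06 ± 0.07. None of the 6 had an unadjusted p under 0.05, and their median was -0.11.

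Genes listed for non-collagen proteins of the tectorial membrane and otic matrix had a median log2 fold change of -0.03. Of 8 tested genes of that list 0 were called and 0 had an unadjusted p under 0.05 (edgeR). Below 0 lay 6 of the 8, against 10290 of 20581 tested genes. Tecta, the gene of the main tectorial membrane glycoprotein, had 5739 ± 362 CPM in wildtype, and the knockout-labelled libraries had 5684 ± 239 CPM (SD, 4 libraries each), a log2 fold change of -0.01 ± 0.08 (SE). Tectb, its partner in that membrane, had -0.14 ± 0.10, and Otoa, which attaches the membrane, had -0.18 ± 0.12. Otol1, the otoconial matrix gene with the smallest p of the list, had 0.23 ± 0.13. Cdh23, which is also counted among the hair cell markers, had 0.07 ± 0.10. The other tested genes of the list lay below 0. Umod, also listed, had 0 counts in the 8 libraries. Of 13 tested chondrocyte markers, 9 lay below 0 with a median of -0.09, and the smallest p belonged to Sox5, a partner of Sox9 in the control of cartilage genes, at 0.20 ± 0.06. Summed CPM of the chondrocyte markers ran from 1598 to 1771 in wildtype and from 1529 to 1741 in the knockout-labelled libraries. Of the 15, 0 were at 0 counts. Epyc and Cnmd, with wildtype means of 784 and 364 CPM, carried most of this sum, followed by Matn4 (217 CPM). Acan, Hapln1 and Comp had wildtype means of 7.20, 2.35 and 1.28 CPM, so the sum does not measure chondrocyte content.

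Among fibrillar collagens, the type I chains had the lowest fold changes. Col1a1 had 385, 345, 270 and 294 CPM in wildtype (library 1 to 4) and 288, 224, 202 and 235 CPM in the knockout-labelled libraries 1 to 4. Knockout-labelled library 1 lay above wildtype library 3, so the groups overlapped. The log2 fold change was -0.45 ± 0.12 (SE), with a Benjamini-Hochberg adjusted p of 0.435 by edgeR's quasi-likelihood test. It passed with DESeq2 alone among the tests run, at an adjusted p of 0.0454. The authors' deposited table also comes from DESeq2, with the same estimate and SE, so it is not a second test. There Col1a1 had a log2 fold change of -0.45 with an adjusted p of 0.0413. Over the alternatives its adjusted p lay between 0.0454 and 1.00 and its log2 fold change between -0.55 and -0.24.

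Col1a2 had 3074, 2651, 2609 and 2460 CPM in wildtype, and the knockout-labelled libraries had 2297, 2154, 1990 and 2449 CPM. The groups did not overlap, but wildtype library 4 and knockout-labelled library 4 were close. Its log2 fold change was -0.28 ± 0.09 (SE), with a Benjamini-Hochberg adjusted p of 0.570 by edgeR's quasi-likelihood test. Col3a1, whose product forms mixed fibrils with type I, had 1607, 1419, 1342 and 1417 CPM in wildtype, and the knockout-labelled libraries had 1335, 1244, 1110 and 1404 CPM (-0.18 ± 0.08). Knockout-labelled library 4 lay above wildtype library 3.

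Col5a1, a chain of the type V collagen that starts fibrils, had 412, 380, 389 and 405 CPM in wildtype, and the knockout-labelled libraries had 381, 370, 349 and 380 CPM (-0.10 ± 0.05), with a small overlap. Its values varied by 3.68% in wildtype (coefficient of variation), against 15.9% for Col1a1. Col27a1, a fibrillar collagen gene of cartilage, was the one abundant member of the class with a value above 0: it had 410, 447, 362 and 448 CPM in wildtype, and the knockout-labelled libraries had 458, 505, 494 and 390 CPM (0.15 ± 0.09). Knockout-labelled library 4 was below 3 of the 4 wildtype libraries. Of the other members, Col24a1 had -0.21 ± 0.10, Col5a2 -0.16 ± 0.08 and Col5a3 0.06 ± 0.10, and the median of the 8 genes was -0.17.

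**Figure D4:**
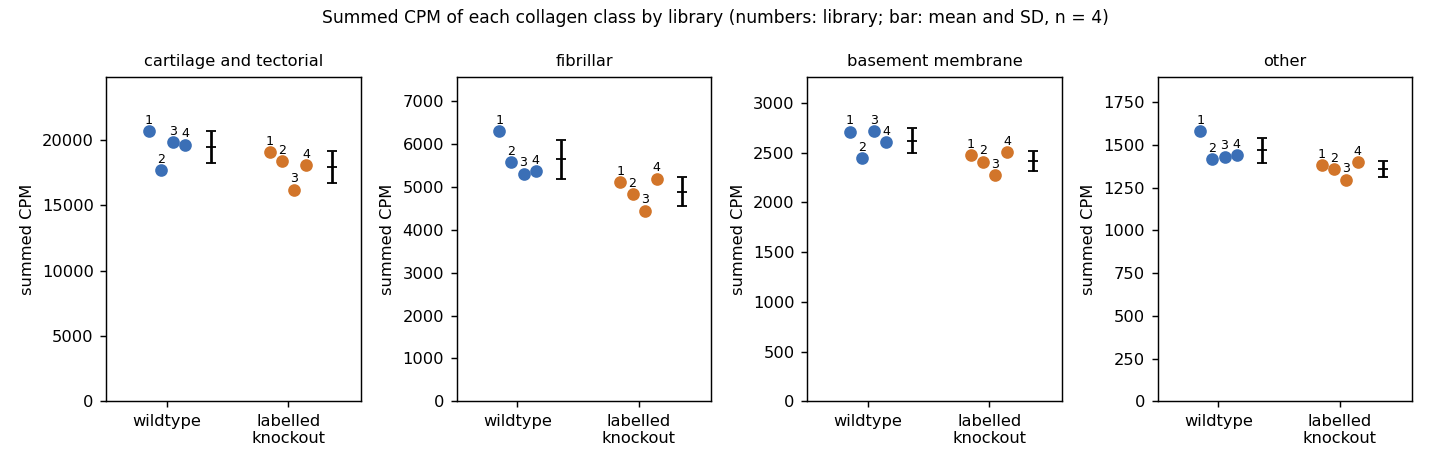
Summed CPM of each collagen class in each library (axes from 0), with the library number at each point and the mean and SD of each group of 4 beside it. Wildtype library 1 is highest for 3 of the 4 classes and knockout-labelled library 3 is lowest for all 4.

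Summed over a class, fibrillar collagens had 6292, 5578, 5302 and 5370 CPM in wildtype, and the knockout-labelled libraries had 5101, 4820, 4442 and 5187 CPM, without overlap. The 22 other collagens also did not overlap, with 1581, 1420, 1432 and 1441 CPM in wildtype, and the knockout-labelled libraries had 1384, 1358, 1297 and 1398 CPM. Cartilage and tectorial genes overlapped, with 19442 ± 1244 and 17916 ± 1232 CPM, as did basement membrane genes, with 2620 ± 126 and 2415 ± 101 CPM (SD, 4 libraries each). The difference in mean log2 summed CPM was -0.20 for fibrillar genes and -0.12, -0.12 and -0.11 for basement membrane, cartilage and tectorial, and other genes. The SDs of the log2 sums in wildtype and in the knockout-labelled libraries were 0.11 and 0.10 for fibrillar, 0.07 and 0.06 for basement membrane, 0.09 and 0.10 for cartilage and tectorial, and 0.07 and 0.05 for other genes. Each difference was larger than the SDs of its own class, and the one nearest to them was that of cartilage and tectorial genes. Sums are carried by their most abundant members, Col1a2 and Col2a1 among them.

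In the basement membrane class, 5 of 8 genes were lower at an unadjusted p under 0.05, against 2.78% of all tested genes, and all 5 were of type IV. Col4a1 had 916, 800, 844 and 831 CPM in wildtype (library 1 to 4) and 757, 744, 696 and 780 CPM in the knockout-labelled libraries 1 to 4. Its head-to-head partner Col4a2, with which it forms the common type IV molecule, had 699, 640, 678 and 665 CPM in wildtype, and the knockout-labelled libraries had 624, 592, 561 and 612 CPM. For both genes every wildtype library was higher than every library labelled knockout. The log2 fold changes were -0.19 ± 0.06 and -0.17 ± 0.06 (SE), and neither passed (Benjamini-Hochberg adjusted p = 0.578 and 0.581, edgeR quasi-likelihood). Exons of the pair share 22 bases on opposite strands in GENCODE M21, and whether reads were counted by strand is not given in the sources used here.

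Col4a3, a chain of the specialised type IV network of some basement membranes, had the lowest fold change of all collagens, on few counts. It had 1.29, 1.47, 1.81 and 1.88 CPM in wildtype, and the knockout-labelled libraries had 0.475, 0.595, 1.17 and 0.946 CPM, from 50 to 64 and from 14 to 39 counts a library. The groups did not overlap, and the log2 fold change was -1.01 ± 0.28 (SE), with a Benjamini-Hochberg adjusted p of 0.453 by edgeR's quasi-likelihood test. Exons of Col4a3 share 563 bases with C430014B12Rik on the other strand, a gene with a mean of 29.4 counts a library, so reads of both cannot be told apart here. Col4a4, the neighbour of Col4a3, had 8.77, 6.93, 8.28 and 8.10 CPM in wildtype, and the knockout-labelled libraries had 5.29, 5.80, 7.15 and 7.03 CPM (-0.34 ± 0.13), and is named after its values were seen.

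Col4a5, another chain of that network, had 101, 84.0, 102 and 101 CPM in wildtype, and the knockout-labelled libraries had 82.1, 84.2, 77.9 and 93.0 CPM (-0.20 ± 0.07). Wildtype library 2 alone of the wildtype libraries lay among the knockout-labelled libraries. Col18a1 had 913, 853, 996 and 919 CPM in wildtype, and the knockout-labelled libraries had 951, 914, 865 and 930 CPM (-0.01 ± 0.06), and its sign turned with the setting. Col15a1 and Col4a6 had -0.20 ± 0.12 and 0.12 ± 0.14. The median of the 8 genes was -0.19, the lowest of the 4 classes.

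Other basement membrane proteins had values of similar size. Of 20 tested laminin, nidogen, perlecan and related genes 0 were called, 18 lay below 0 with a median of -0.16, and 9 were lower at an unadjusted p under 0.05. Over all tested genes, 10290 of 20581 lay below 0 and 2.78% were lower at that p. Nid1, which links laminin to type IV collagen, had 355 ± 16.4 CPM in wildtype, and the knockout-labelled libraries had 303 ± 11.9 CPM (SD, 4 libraries each). Its log2 fold change was -0.23 ± 0.05 (SE), with a Benjamini-Hochberg adjusted p of 0.326 by edgeR's quasi-likelihood test, and it passed with DESeq2 (adjusted p = 0.0234). The summed CPM of the list did not overlap between groups, with 7721 to 8403 in wildtype and 7164 to 7602 in the knockout-labelled libraries.

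The 22 other collagens were mixed in direction, with 14 of 21 tested genes below 0 and a median of -0.06. Col12a1, a collagen that lies on the surface of fibrils, had 177, 182, 187 and 161 CPM in wildtype, and the knockout-labelled libraries had 156, 151, 159 and 146 CPM, without overlap. Its log2 fold change was -0.21 ± 0.06 (SE), with a Benjamini-Hochberg adjusted p of 0.447 by edgeR's quasi-likelihood test. Col6a3, a chain of the beaded filaments of type VI, had 309, 271, 274 and 259 CPM in wildtype, and the knockout-labelled libraries had 282, 270, 245 and 227 CPM (-0.12 ± 0.08). Its partners Col6a1 and Col6a2 had -0.08 ± 0.11 and -0.05 ± 0.09.

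Col16a1, a fibril-associated collagen, had 242, 193, 216 and 224 CPM in wildtype, and the knockout-labelled libraries had 203, 206, 179 and 207 CPM (-0.14 ± 0.07). Col26a1 had 207, 176, 199 and 189 CPM in wildtype, and the knockout-labelled libraries had 188, 186, 172 and 204 CPM (-0.04 ± 0.06). Both genes overlapped between groups. A further 3 genes of the class, named after their values were seen, had an unadjusted p under 0.05. Col8a2, a network-forming collagen gene, had 111, 79.0, 81.5 and 81.1 CPM in wildtype, and the knockout-labelled libraries had 70.1, 74.3, 68.9 and 72.7 CPM, without overlap (-0.30 ± 0.10). Col14a1, a relative of Col12a1, had 75.5 ± 9.74 and 61.4 ± 9.76 CPM (-0.30 ± 0.11), and the low-level Col17a1 had 1.05 ± 0.298 and 1.58 ± 0.410 CPM (SD, 4 libraries each), the one gene with a higher value in this count (0.58 ± 0.25). The other 14 tested genes of the class, with Col6a1 and Col6a2 among them, had log2 fold changes between -0.29 (Col22a1) and 0.18 (Col7a1, the anchoring fibril collagen of skin).

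Across the 43 genes, the same libraries often stood at the ends. Wildtype library 1 was the highest of the 8 libraries for 17 genes and the lowest for 0, while knockout-labelled library 3 was the lowest for 21 genes and the highest for 3. Wildtype library 3 was the lowest for 9. How often these libraries stood there over all tested genes was not counted. With each library left out, 32 to 35 of the 43 collagens lay below 0. The median coefficient of variation was 9.73% in wildtype and 8.99% in the knockout-labelled libraries, against 10.3% and 9.85% over all tested genes. Counting alone would give 0.158% for Col2a1 and 12.9% for Col4a3 in wildtype, so for the abundant collagens nearly all of the spread lay between libraries. Col25a1, a membrane collagen gene of neurons, varied least in wildtype, by 2.52%, and Col6a5 most, by 38.6%. In the knockout-labelled libraries Col4a3 varied by 40.0%, against 19.7% from counting, so for this low gene too the spread was larger than counting error.

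**Figure D5:**
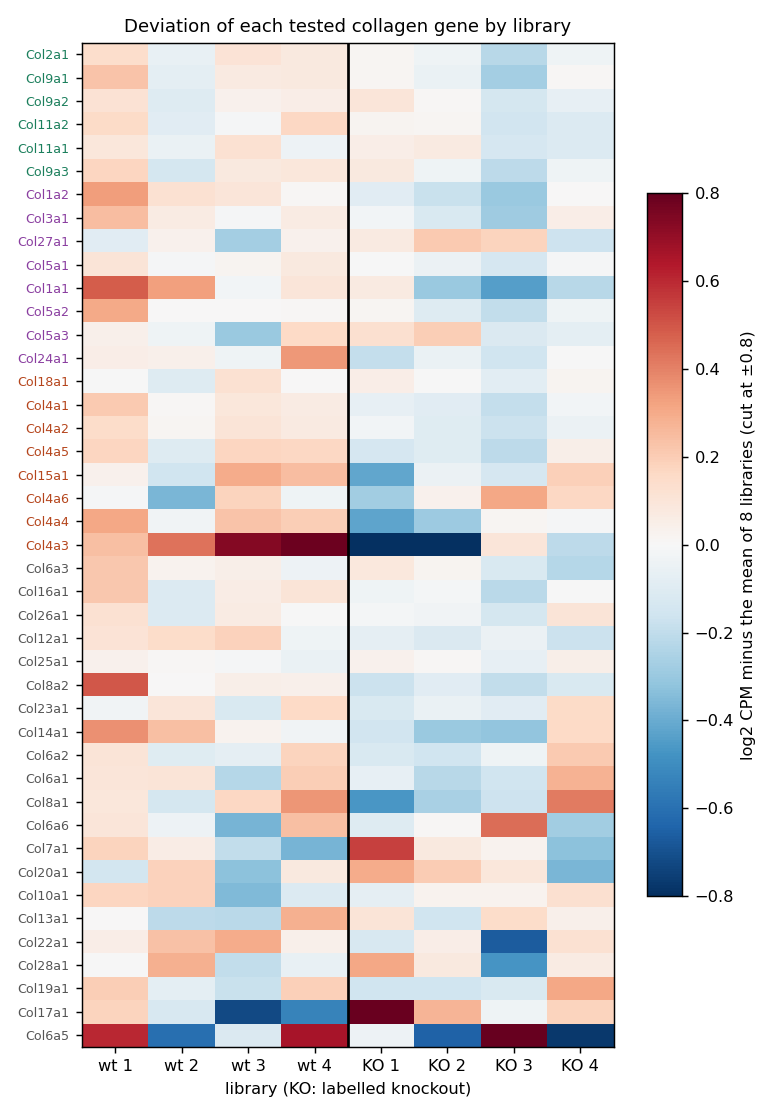
Deviation of log2 CPM from the mean of the 8 libraries for each of the 43 tested collagen genes (rows, coloured by class) in each library (columns, with KO for labelled knockout), red above and blue below the mean. Wildtype library 1 is mostly red and knockout-labelled library 3 mostly blue for the abundant genes at the top, while low genes at the bottom of a class vary without that order.

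Genes that make, bind and cut collagen were read from the same fit. Over all tested genes in that fit, 10290 of 20581 lay below 0, 0.0340% were called higher and 0.0583% lower. Of 33 genes for collagen modification, folding, export and cross-linking 0 were called, 25 lay below 0 and the median log2 fold change was -0.08. The smallest p belonged to Loxl2, a cross-linking lysyl oxidase gene, with 17.03 ± 1.2 CPM in wildtype, and the knockout-labelled libraries had 14.3 ± 0.698 CPM (SD, 4 libraries each; -0.25 ± 0.08). Of 9 tested collagen receptor genes 0 were called and 8 lay below 0 (median -0.08), with the smallest p for the cartilage integrin gene Itga10 (-0.27 ± 0.08).

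Of 12 tested collagen protease and inhibitor genes 0 were called and 9 lay below 0 (median -0.17). Ctsk, a collagen-cutting cathepsin gene, had 34.0 ± 2.36 CPM in wildtype, and the knockout-labelled libraries had 26.5 ± 1.81 CPM (SD, 4 libraries each; -0.36 ± 0.07), and passed with DESeq2 alone (adjusted p = 0.00565). Of 20 tested genes of proteoglycans and other fibril partners 0 were called and 19 lay below 0 (median -0.18). Dcn, Lum and Fbln1 of this list are also counted among the mesenchyme and fibrocyte markers. Thbs2, a thrombospondin gene that bears on fibril assembly, had 90.3 ± 6.66 and 67.7 ± 9.07 CPM (SD, 4 libraries each; -0.42 ± 0.09), without overlap. It passed with DESeq2, with no low-count filter and without knockout-labelled library 4 (Benjamini-Hochberg adjusted p = 0.00717, 0.0358 and 0.0250, the last 2 by edgeR).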

How the data were processed

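The members, gene lists and settings were chosen with earlier results of these data known. Libraries came from ribosome-depleted total RNA (Qiagen RNeasy, NEBNext Ultra II), per the labels' protocols. Per the submitters' processing notes, the build was GRCm39 and the tools included HISAT2 2.2.1, featureCounts, cutadapt 4.3, FastQC 0.12.1 and DESeq2. Which annotation and strand setting were used is not given in the sources used here. Per the file headers, the authors' tables hold raw counts per gene and 4 columns of group means and SDs, which were not used. Their deposited DESeq2 table gives log2 fold changes, a test score and p-values, with its direction read from its signs.

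Genes with enough counts (filterByExpr, minimum count 10; 20581 of 41079) were fitted with edgeR 4.0.16 (R 4.3.3; TMM, quasi-likelihood test, genotype as single factor), with Benjamini-Hochberg adjustment over all tested genes. DESeq2 1.42.0 was an alternative, with RLE factors, other filters, a replicate block, score covariates and left-out libraries. CPM use TMM factors. Collagens given per-library values by rule are the 4 most abundant and the smallest-p member of each class. Col4a4 and Col8a2 were added after their values were seen. From each partner list, genes past the threshold were chosen, or else the one with the smallest p. Other gene names were chosen after their values were seen. No pair of libraries agreed within sampling noise (lowest chi-square per degree of freedom 10.7).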

Additional observations from a re-analysis of the deposited data

Results flagged for a closer look

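Among 120 groups of 4 values of collagen genes, class sums and chain ratios, 8 held a value far from the other 3. Chance gives about 5% of such groups, and 8 of 120 is near that share. Sums and ratios reuse the same genes, so the groups are not independent. Wildtype library 1 was high for Col5a2 (351 CPM, against 285 to 287 in the other wildtype libraries), for Col8a2 (111 CPM, against 79.0 to 81.5) and for the sum of the 22 other collagens (1581 CPM, against 1420 to 1441). The same library was high for the count ratio of Col4a1 to Col4a2 (1.31, against 1.24 to 1.25) and of Col9a1 to Col9a2 (1.24, against 1.16 to 1.17). Wildtype library 2 was low for Col4a5 (84.0 CPM, against 101 to 102). Knockout-labelled library 3 was low for Col16a1 (179 CPM, against 203 to 207), and knockout-labelled library 4 was high for Col19a1 (2.02 CPM, against 1.46 to 1.50).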

How the results depend on the processing

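No collagen was called higher in any of the 17 alternatives for that count, and 1 was called lower, with DESeq2. Medians, class sums and chain ratios moved by less than the spread between libraries. Over all genes, 7 higher and 12 lower calls became 12 and 24 with no filter, 0 and 7 with the stria score, 2 and 7 without wildtype libraries 1 and 3, and 35 and 48 with DESeq2, and lay between 2 and 7 and between 8 and 20 with each library left out. Calls among partner genes (0) became 1 lower with no filter and 3 with DESeq2, and 0 to 1 with each library left out. Alternatives for the counts at an unadjusted p under 0.05 were chosen after seeing the data. The 10 lower collagens became 5 with the mesenchyme score, 2 with the stria score and 6 without wildtype libraries 1 and 3, 14 with no filter and with the replicate block, 13 with DESeq2, and 8 to 14 with each library left out. Those below 0 (33) numbered 30 to 35 over all of these. The 1 higher became 2, with the stria score, 0 without wildtype libraries 1 and 3, and 0 to 2 with each library left out. Small fold changes turned positive. Col18a1 had 0.0056 with at least 50 counts in 4 libraries, 0.063 with the mesenchyme score, 0.034 with the stria score and 0.046 without wildtype libraries 1 and 3, and -0.044 to 0.032 with each library left out. Col26a1 had 0.061, 0.049 and 0.037 with the last 3 settings in that order, and Col9a2 0.022, 0.022 and 0.0017. Col6a3 had 0.043 with the stria score. The cause of these shifts was not tested. With a replicate block, 3 genes were called higher and 0 collagens were called. Wildtype and knockout-labelled libraries of the same number correlated by 0.11, 0.21, -0.28 and -0.14, and those of different numbers by -0.40 to 0.37. No pairing by number showed, but so few values cannot exclude one. Counting error alone is largest for the genes of few counts, such as Col4a3.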
